A study of Homo sapiens with 6 samples.

Results

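HSF1 and 9 genes of the cytosolic HSP70 and HSP90 machinery (HSPA8, HSPA1A, HSPA1B, HSPA4, HSPH1, HSP90AA1, HSP90AB1, DNAJA1 and DNAJB1) were followed through RNA-seq of the human multiple myeloma cell line JJN3. They were taken by name as a heat shock factor with chaperone targets, by a rule that uses no levels but was written with earlier results of these data known, and all 10 were found among the 60728 genes of the count table and passed the filter on low counts, as did 15548 genes in all. JJN3 of wild-type genotype was used throughout, and 2 libraries each represent the DMSO solvent control, WNK463 treatment lasting 2 h and WNK463 treatment lasting 6 h. The compound WNK463 blocks WNK kinases, regulators of the cotransporters that carry chloride with sodium or potassium. Its dose is 5 µM in the protocol of the samples and 1 µM in the design of the series. The DMSO cells carry no collection time beyond the word control, so time in culture and WNK463 cannot be told apart. Nothing states that replicates were separate cultures, and p-values then measure only the spread between these libraries, which may be technical.

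Chaperones of the HSP70 class bind unfolded stretches of client proteins in cycles of ATP hydrolysis. J-domain proteins (HSP40s such as DNAJA1 and DNAJB1) bring clients and speed up hydrolysis, and the HSP110 relatives HSPA4 and HSPH1 release the spent nucleotide. HSP90 takes over partly folded clients, many of them kinases and steroid receptors, with the help of cofactors. HSF1 is held inactive by these same chaperones and, when they are occupied by unfolded protein, binds heat shock elements in their promoters, which are alternating GAA and TTC units each set apart by a pair of bases. Plasma cells and myeloma cells make large amounts of secreted protein, and HSP90 and HSP70 have been studied as drug targets in myeloma.

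Fragments assigned to genes numbered 18013790 to 24002291 per library, and 3 counts corresponded to 0.125 to 0.167 CPM, the count scaled to library size. Log CPM correlated at 0.982 to 0.984 between replicates and at 0.966 to 0.976 between libraries of different groups, over genes. All 8 plasma cell markers (among them SDC1, TNFRSF17, PRDM1, IRF4 and XBP1) had counts in every library, with a summed level of 1388 to 1515 CPM. IRF4 was the largest part of this sum (574 to 717 CPM), and SLAMF7, also among the 8, was low (2.1 to 5.6 CPM). The T cell marker CD3D and the erythroid marker HBB had no count in any library, and the summed levels of 3 mature B cell, 3 T cell and 3 myeloid markers were at most 4.39, 0.598 and 1.75 CPM. The 3 epithelial markers summed to 97.1 to 97.5 CPM in DMSO, 117 to 123 CPM at 2 h and 109 to 115 CPM at 6 h, nearly all of it EPCAM, and the part of this in the results below was not tested.

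Promoter windows of RefSeq (GRCh38.p14, 250 bases before to 50 after an annotated start) were found for 9 of the 10 genes, with several windows for HSP90AA1, HSP90AB1 and DNAJB1. An inverted pair of units, GAANNTTC or TTCNNGAA (N stands for any base, and each reads the same on both strands), stood in at least 1 window of 7 of the 9 genes. The 3-unit runs GAANNTTCNNGAA and TTCNNGAANNTTC, which are each other's reverse complement and hold both pairs within them, stood in HSPA8, HSP90AA1, HSP90AB1 and DNAJA1. Of all 27305 genes with a window 16.2% held a pair and 0.608% a run in at least 1 window (13.5% and 0.490% of all 35116 windows), and of 44 genes of the wider chaperone network with a window 15 held a pair and 3 (HSPA6, DNAJB6 and CHORDC1) a run. The genes were chosen as heat shock factor targets, so a larger share among them is no separate finding. The 6 runs are set out below with 8 bases on each side, on the coding strand of each gene, 5′ to 3′, to show how alike they are between the genes, with the run in capitals.
HSPA8, chr11:123062346-123062374, minus strand: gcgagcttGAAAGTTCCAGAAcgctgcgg
HSPA8, chr11:123062171-123062199, minus strand: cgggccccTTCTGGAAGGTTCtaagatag
HSP90AA1, chr14:102087112-102087140, minus strand: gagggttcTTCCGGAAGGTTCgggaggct
HSP90AB1, chr6:44247770-44247798, plus strand: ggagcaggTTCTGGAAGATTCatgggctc
HSP90AB1, chr6:44247823-44247851, plus strand: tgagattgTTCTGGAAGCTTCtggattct
DNAJA1, chr9:33025268-33025296, plus strand: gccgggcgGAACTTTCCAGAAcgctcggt

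In hg38 HSPA8 lies at chr11:123057489-123063230, HSP90AA1 at chr14:102080742-102139699 and DNAJB1 at chr19:14514769-14529770, all on the minus strand, and HSPA1B at chr6:31827738-31830254, HSP90AB1 at chr6:44246166-44253888 and DNAJA1 at chr9:33025273-33039907 on the plus strand. Whole windows are given for HSPA8, which fell the most of the set, for HSPA1B, a stress-inducible HSP70 gene, and for DNAJB1, which did not pass the test at either time. Capitals mark the pairs and runs.
HSPA8, chr11:123062087-123062386, minus strand: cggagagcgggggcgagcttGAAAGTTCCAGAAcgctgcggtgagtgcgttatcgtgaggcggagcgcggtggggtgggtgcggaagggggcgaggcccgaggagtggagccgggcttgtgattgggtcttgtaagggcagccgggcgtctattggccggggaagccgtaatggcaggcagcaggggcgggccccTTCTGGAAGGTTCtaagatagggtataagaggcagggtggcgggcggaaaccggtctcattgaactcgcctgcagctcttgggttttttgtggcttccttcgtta
HSPA1B, chr6:31827488-31827787, plus strand: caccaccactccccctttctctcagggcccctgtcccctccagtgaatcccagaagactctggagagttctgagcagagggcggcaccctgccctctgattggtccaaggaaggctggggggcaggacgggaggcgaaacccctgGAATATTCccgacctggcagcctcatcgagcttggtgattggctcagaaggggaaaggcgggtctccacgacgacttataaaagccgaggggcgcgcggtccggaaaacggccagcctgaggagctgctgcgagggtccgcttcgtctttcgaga
DNAJB1, chr19:14518348-14518647, minus strand: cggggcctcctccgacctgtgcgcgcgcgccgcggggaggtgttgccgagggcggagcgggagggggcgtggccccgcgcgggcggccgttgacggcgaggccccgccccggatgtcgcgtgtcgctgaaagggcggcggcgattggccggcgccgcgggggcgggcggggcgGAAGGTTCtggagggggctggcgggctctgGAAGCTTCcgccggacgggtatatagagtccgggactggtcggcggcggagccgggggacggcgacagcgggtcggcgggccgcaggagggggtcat

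The HSPA8 runs began 230 and 55 bases before the start and those of the third HSP90AB1 window 165 and 112 bases before it, while that of DNAJA1 lay 3 to 15 bases after it. The third HSP90AB1 window lies inside the gene, downstream of its first and second windows. It is not alone in this. The HSPA8 window, the first HSP90AA1 window, the second HSP90AB1 window and every DNAJB1 window also lie inside the gene bounds given above. HSPA1A and HSPA1B held 1 pair each, 106 and 105 bases before their starts, and the DNAJB1 window printed here held pairs at 77 and 47 bases before its start. The windows of HSPA4 and HSPH1, the second window of HSP90AA1, the first and second of HSP90AB1 and the third of DNAJB1 held none of these letters. A match of letters is a description of the window and not of binding.

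**Figure D1:**
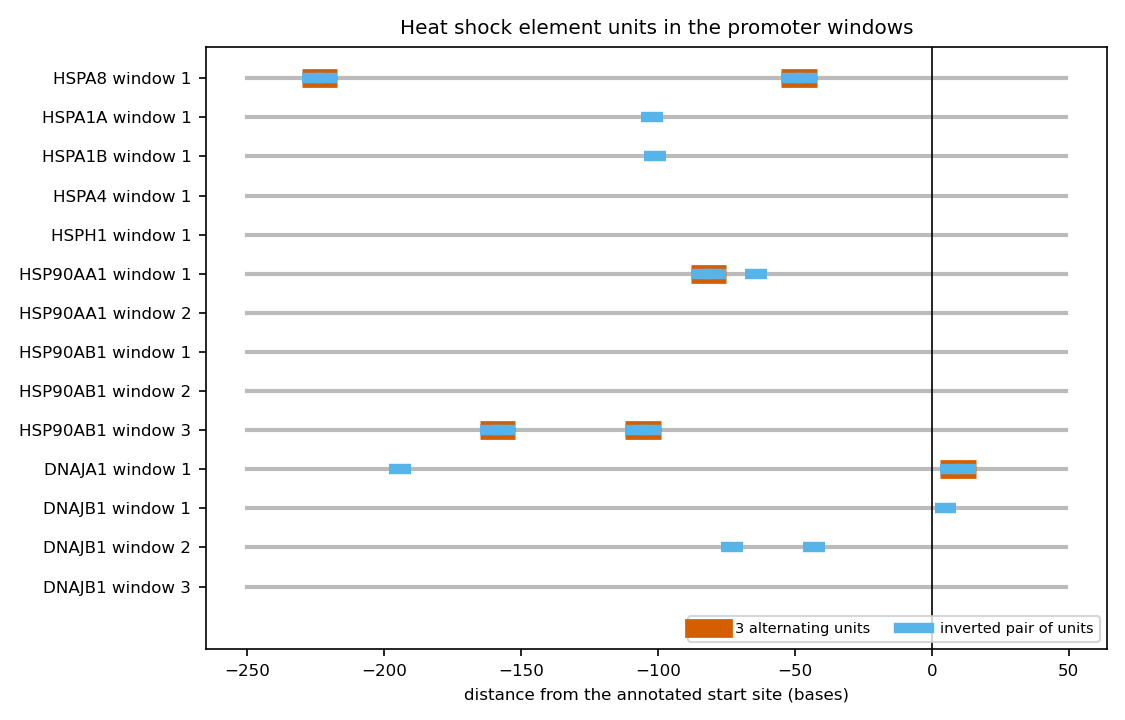
Position of heat shock element units in each promoter window, drawn against distance from the annotated start site in bases, for 9 genes and 14 windows (grey lines). Thick orange blocks are runs of 3 alternating units and thin blue blocks inverted pairs; HSPA8 and the third HSP90AB1 window hold 2 runs each, and HSPA4 and HSPH1 hold neither.

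Baseline levels spanned a wide range, compared here as TPM, a transcript share that divides by the exon length of each gene. That length counts all annotated exon bases (4849 for HSPA8, 2980 for HSP90AB1), whichever transcripts are used. The order of genes and the size of ratios between genes depend on it. In CPM, which use no length, HSP90AB1 had a mean of 4316 and HSPA8 of 3865 in DMSO. In DMSO the order of mean TPM was HSP90AB1 (5262 ± 182, SD, n = 2), HSPA8 (2896 ± 126), HSP90AA1 (956 ± 48.6), DNAJA1 (402 ± 18.8), HSPA4 (200.2 ± 11.3), HSF1 (142 ± 9.30), HSPA1B (134 ± 13.5), HSPH1 (120 ± 6.57), DNAJB1 (75.5 ± 4.56) and HSPA1A (6.26 ± 0.890). HSF1 (136 and 149 TPM) and HSPA1B (125 and 144 TPM) overlapped in their DMSO libraries, and HSPA1B, at 125 to 144 TPM, lay only just above HSPH1 at 115 and 124 TPM. By mean TPM HSP90AB1 ranked 17th, HSPA8 27th and HSP90AA1 97th of the 15548 genes tested in DMSO. At 6 h HSP90AB1 ranked 18th and HSPA8 70th.

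The HSP70 pair HSPA1A and HSPA1B is counted poorly here. Of the 100-base windows of their transcripts, 67.3% in HSPA1A and 72.7% in HSPA1B occur letter for letter in another gene, mostly in each other, and fragments without a unique position were not counted. HSPA1B also shares 36.6% of its exon bases with an overlapping gene on the same strand. The level of both is therefore uncertain and rests on the parts in which they differ, with only 50 to 97 counts per library for HSPA1A. In the other 8 genes at most 2.99% of such windows and 6.25% of exon bases were shared with another gene.

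At 2 h of WNK463, HSPA8 was the only gene of the set that passed the test. HSPA8, the constitutive HSP70 and also the carrier of chaperone-mediated autophagy, fell to 2797 and 2873 CPM at 2 h, against 3728 and 4002 CPM in DMSO. The HSP90 genes, HSF1 and the HSP40 genes were close to their DMSO levels. Of 10 genes 1 was called lower (8.32% of all genes tested were) and 0 higher (8.68%), at an adjusted p under 0.05 in the edgeR quasi-likelihood test with Benjamini-Hochberg adjustment over 15548 genes; 2 had an unadjusted p under 0.05 and an adjusted p just above the threshold. The count was 1 or 2 under the other settings that left no single library out. The median log2 change of the 10 genes was -0.01, and that of all genes tested was -0.01.

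The change of HSPA8 at 2 h was a log2 change of -0.45 ± 0.0440 (SE, adjusted p = 6.51e-11), or 26.7% lower, with both 2 h libraries below both DMSO libraries, as in 4 of the 10 genes and 27.4% of all genes tested. A log2 change as low as this or lower was seen in 15.0% of all genes tested. The stress-inducible HSPA1B stood at 79.2 and 79.9 CPM at 2 h, against 86.9 and 99.3 CPM in DMSO, a log2 difference of -0.23 ± 0.0857 (adjusted p = 0.0616). The groups of HSPA1B did not overlap, but the difference passed the threshold only under some settings. It was -0.24 with HSPA1A and HSPA1B summed into 1 gene (adjusted p = 0.0440). With 1 DMSO library in the fit, it was -0.13 without DMSO replicate 1 and -0.31 without DMSO replicate 2. HSPA1A stood at 2.73 and 3.16 CPM at 2 h, against 3.71 and 4.58 CPM in DMSO (log2 difference -0.49, 95% interval -1.11 to 0.13, adjusted p = 0.303).

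The HSP90 genes stood slightly above DMSO at 2 h without passing the test. HSP90AB1, the constitutive HSP90, had 4694 and 4625 CPM at 2 h, against 4190.0 and 4442 CPM in DMSO (log2 difference 0.11 ± 0.0407, adjusted p = 0.0536). With no library left out, it passed under some other settings of scaling, filter and model. It stood at 0.07 without DMSO replicate 1 and at 0.16 without DMSO replicate 2, each a fit with 1 DMSO library. HSP90AA1, the stress-inducible HSP90, had 1412 and 1446 CPM at 2 h, against 1286 and 1395 CPM in DMSO (0.09 ± 0.0494, adjusted p = 0.220). Without DMSO replicate 1 HSP90AA1 stood at 0.04, and without DMSO replicate 2 at 0.16. Both HSP90 genes and DNAJB1 had their 2 h libraries above both DMSO libraries, as did 27.1% of all genes tested.

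HSF1 had 217 and 204 CPM at 2 h, against 216 and 199 CPM in DMSO, and the groups overlapped (log2 difference 0.02, 95% interval -0.12 to 0.16). DNAJA1 (288 and 301 CPM at 2 h, against 284 and 307 CPM in DMSO) and HSPA4 (271 and 286 CPM at 2 h, against 269 and 294 CPM in DMSO) also overlapped, with intervals of -0.13 to 0.12 and -0.14 to 0.12. HSPH1 stood at 252.2 and 263.8 CPM at 2 h, against 264.5 and 288.5 CPM in DMSO, with groups that barely stood apart (log2 difference -0.10, adjusted p = 0.317). Without DMSO replicate 1 HSPH1 stood at -0.16, and without DMSO replicate 2 at -0.03. DNAJB1 stood at 83.4 and 80.6 CPM at 2 h, above 78.7 and 72.9 CPM in DMSO (0.11, interval -0.06 to 0.29).

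At 6 h of WNK463 most of the set was called lower than in DMSO. HSPA8 was 58.8% lower than in DMSO, and HSF1, HSPA1B, HSPA4, HSPH1, HSP90AA1, HSP90AB1 and DNAJA1 were 13.3% to 24.7% lower. DNAJB1 and HSPA1A did not pass the test. Of 10 genes 8 were called lower, against 18.6% of all genes tested, and 0 higher, against 18.0%. All 8 had both 6 h libraries below both DMSO libraries, as did 33.1% of all genes tested, and 0 of the 10 had both above, as did 32.7%, and the median log2 change of the 10 was -0.32, against -0.01 over all genes tested. The count was 7 or 8 under every other setting tried.

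HSPA8 fell to 1586 and 1601 CPM at 6 h, against 3728 and 4002 CPM in DMSO, a log2 change of -1.28 ± 0.0446 (95% interval -1.37 to -1.19, adjusted p = 5.50e-27). Only 2.85% of all genes tested had a log2 change as low as this or lower. HSPA8 made up 0.162% and 0.163% of all assigned fragments at 6 h, against 0.374% and 0.398% in DMSO. The next lowest estimates were those of HSPH1 (-0.41, 95% interval -0.54 to -0.28) and DNAJA1 (-0.41, -0.54 to -0.28), whose intervals lay well above that of HSPA8.

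Among the other HSP70 genes, HSPA1B fell to 76.0 and 71.6 CPM at 6 h, against 99.3 and 86.9 CPM in DMSO (log2 change -0.33 ± 0.0861, adjusted p = 0.00170). Without 6 h replicate 2 the log2 change was -0.29 and the call was lost, in a fit with 1 library at 6 h. HSPA1A stood at 3.40 and 4.53 CPM at 6 h, against 3.71 and 4.58 CPM in DMSO, and the groups overlapped (-0.07, 95% interval -0.68 to 0.54). Summed with HSPA1B it was called lower (-0.32, adjusted p = 0.00201), a sum in which HSPA1B makes up nearly all the counts.

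Both nucleotide exchange factors of the set fell. HSPA4 had 219 and 210.5 CPM at 6 h, against 269 and 294 CPM in DMSO (log2 change -0.39 ± 0.0642, adjusted p = 2.83e-06). HSPH1 had 203 and 213 CPM at 6 h, against 264 and 289 CPM in DMSO (-0.41 ± 0.0647, adjusted p = 1.30e-06). In both, the higher 6 h library lay well below the lower DMSO library.

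Of the J-domain genes, DNAJA1, a farnesylated co-chaperone of HSPA8, had 229 and 216 CPM at 6 h, against 284 and 307 CPM in DMSO (log2 change -0.41 ± 0.0634, adjusted p = 9.75e-07). DNAJB1, the J-domain partner of the inducible HSP70 and a classical HSF1 target, had 77.1 and 83.2 CPM at 6 h, against 78.7 and 72.9 CPM in DMSO. The groups of DNAJB1 overlapped, with a log2 difference of 0.08 (95% interval -0.09 to 0.25, adjusted p = 0.5003), so a fall of the size seen in DNAJA1 lies outside the interval for DNAJB1.

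The HSP90 genes were 13.3% (HSP90AB1) and 17.7% (HSP90AA1) lower. HSP90AB1 had 3777 and 3706 CPM at 6 h, against 4190.0 and 4442 CPM in DMSO (log2 change -0.21 ± 0.0407, adjusted p = 6.09e-05). HSP90AA1 had 1116 and 1092 CPM at 6 h, against 1286 and 1395 CPM in DMSO (-0.28 ± 0.0495, adjusted p = 9.79e-06). HSF1 had 170 and 165 CPM at 6 h, against 216 and 199 CPM in DMSO (-0.31 ± 0.0681, adjusted p = 0.000250). In all of these the groups stood apart.

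**Figure D2:**
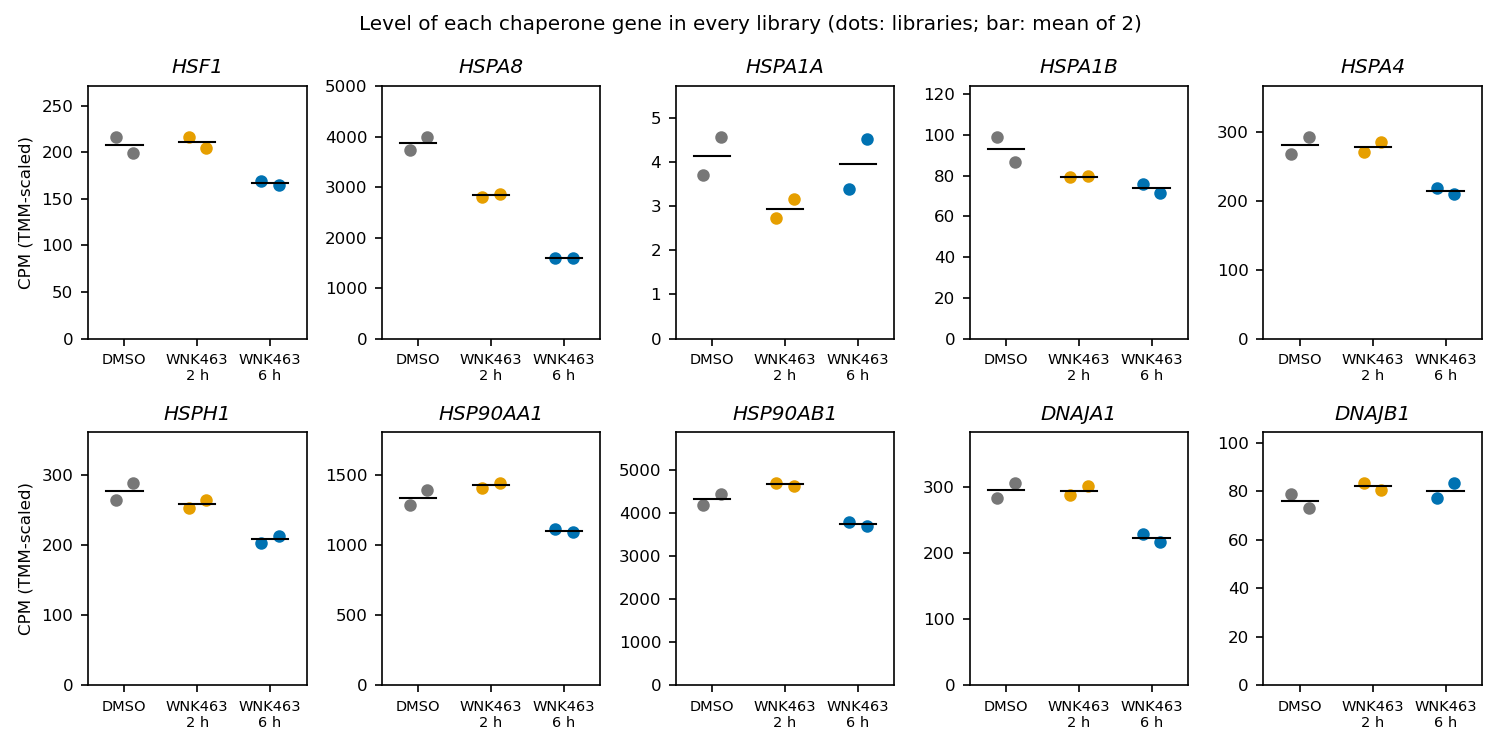
Level of each gene in every library as TMM-scaled CPM (vertical axes from 0, a scale per gene) for DMSO, WNK463 at 2 h and WNK463 at 6 h; dots are libraries and bars means of 2. HSPA8 steps down at both times, and DNAJB1 stays between 72.9 and 83.4 CPM. HSP90AB1 and HSP90AA1 stand slightly above DMSO at 2 h, without passing the test, and below it at 6 h.

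**Figure D3:**
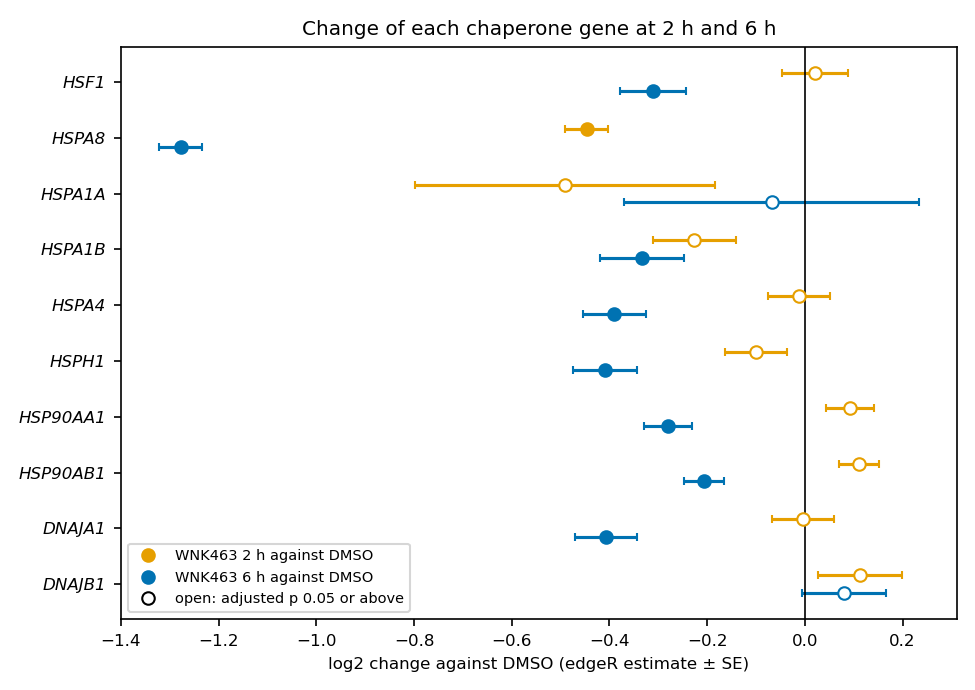
Log2 change of each gene against DMSO at 2 h (orange) and 6 h (blue), as edgeR estimates with SE from fits of 2 libraries per group; open symbols had an adjusted p of 0.05 or above. At 2 h only HSPA8 is filled, and at 6 h 8 of 10 genes are filled and lie below 0.

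The step from 2 h to 6 h asked when the fall took place. Of 10 genes 7 were called lower at 6 h than at 2 h (13.1% of all genes tested were), and 0 were higher (11.1%). With library size alone as the scaling the split over all genes was 2409 higher and 1523 lower, against 1731 higher and 2041 lower with TMM, and 7 of the 10 genes were called lower under both. HSPA8 fell again, to 1586 and 1601 CPM at 6 h, against 2797 and 2873 CPM at 2 h (log2 change -0.83 ± 0.0443, adjusted p = 1.51e-19), and 4.64% of all genes tested had a log2 change as low or lower. The falls of HSP90AB1 (-0.32), HSP90AA1 (-0.37), HSF1 (-0.33), HSPA4 (-0.38), HSPH1 (-0.31) and DNAJA1 (-0.40) had adjusted p values of at most 0.000240. All 7 of these genes and HSPA1B had both 6 h libraries below both 2 h libraries, as did 30.2% of all genes tested, and HSPA1A had both above, as did 31.8%. HSPA1B (-0.11, 95% interval -0.28 to 0.07), DNAJB1 (-0.03, -0.20 to 0.14) and HSPA1A (0.42, -0.20 to 1.04) did not pass. The comparisons share libraries, so these values are not independent of those against DMSO.

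Summed over the 10 genes, the level per length was 10194 ± 367 TPM in DMSO, 9617 ± 21.4 TPM at 2 h and 7609 ± 148 TPM at 6 h (SD, n = 2 each). HSPA8, HSPA1A and HSPA1B together gave 3037 ± 114, 2184 ± 41.6 and 1344 ± 7.04 TPM in that order. HSP90AA1 and HSP90AB1 together gave 6217 ± 231, 6521 ± 36.4 and 5503 ± 123 TPM. The make-up of the set thus shifted: the TPM ratio of HSPA8 to HSP90AB1 was 0.547 and 0.554 in DMSO, 0.366 and 0.382 at 2 h and 0.258 and 0.266 at 6 h. The ratio of HSP90AA1 to HSP90AB1 moved far less, with 0.179 and 0.184 in DMSO, 0.176 and 0.183 at 2 h, and 0.173 and 0.172 at 6 h. DNAJA1 stood at 0.139 of the TPM of HSPA8 in both DMSO libraries, at 0.187 and 0.191 at 2 h and at 0.262 and 0.246 at 6 h. In bulk samples less RNA per cell and a change in which cells were present cannot be told apart.

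**Figure D4:**
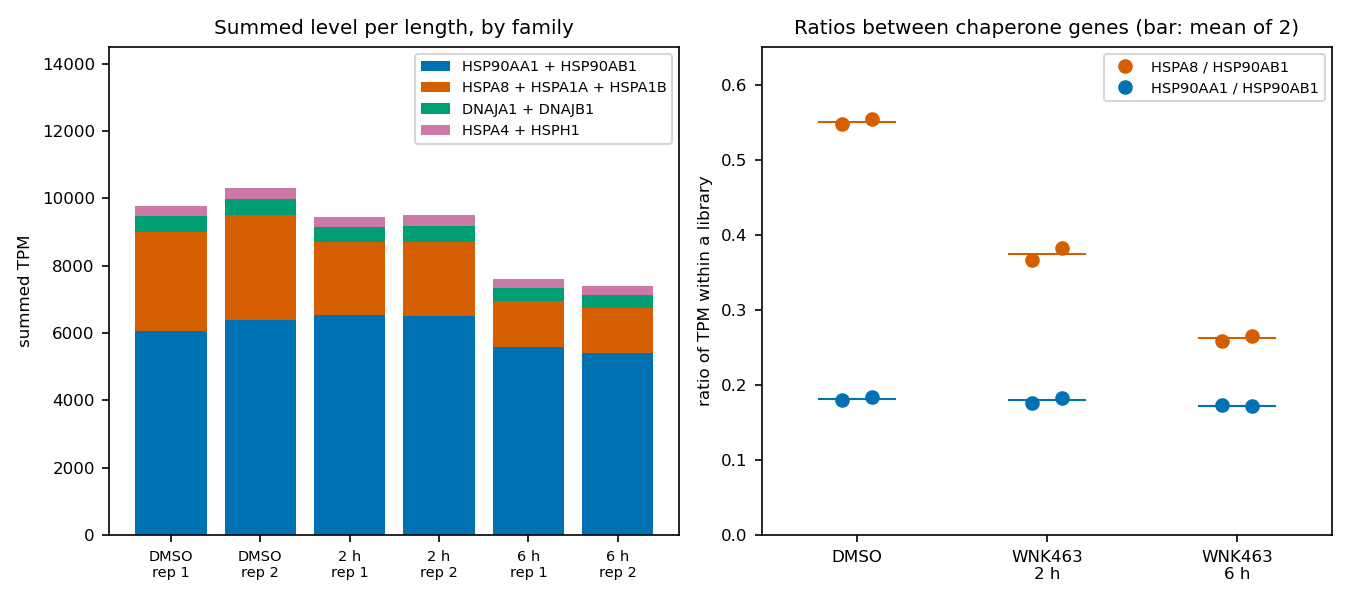
Left, summed TPM of the chaperone genes in each library, stacked by family from 0; right, TPM ratios within each library, with bars for the mean of 2. The HSP70 part of the stack shrinks to 1344 TPM at 6 h, against 3037 TPM in DMSO, while the HSP90AA1 to HSP90AB1 ratio stays between 0.172 and 0.184.

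The wider chaperone network, 53 genes in 7 role groups of which 50 were tested, gave 9 genes higher and 24 lower at 6 h than in DMSO, and 5 higher and 4 lower at 2 h. Over all genes tested 18.0% were called higher and 18.6% lower at 6 h, and 8.68% and 8.32% at 2 h, so the genes called higher at 6 h and in either direction at 2 h were near those shares. The median log2 change was -0.23 at 6 h and 0.02 at 2 h, against -0.01 over all genes tested at both times. Between 6 h and 2 h, 3 were higher and 23 lower, where 11.1% and 13.1% of all genes tested were. With library size alone as the scaling it was 6 and 19, where 2409 of the 15548 genes tested were higher and 1523 lower. At 2 h the number called was 15 without DMSO replicate 2 and 5 without 2 h replicate 2, against 9 with all libraries.

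Most HSP90 cofactors fell. Of 14 tested at 6 h, 11 fell and 1 rose, with a median log2 change of -0.34, where 18.6% of all genes tested fell and 18.0% rose. CHORDC1, a zinc-binding HSP90 partner induced by heat, had 1381 and 1329 counts at 6 h, against 2303 and 3174 counts in DMSO, and its scaled level was 50.04% lower (adjusted p = 9.86e-14). AHSA1, the activator of the HSP90 ATPase, had 62.8 and 67.7 CPM at 6 h, against 122 and 100.1 CPM in DMSO (-0.76), and NUDC had a log2 change of -0.54. CDC37L1, a relative of the kinase cofactor CDC37, was low and rose to 11.8 and 13.1 CPM at 6 h, against 8.58 and 8.46 CPM in DMSO (0.55, adjusted p = 0.0164). At 2 h CHORDC1 (-0.40) and PPID (-0.40), a cyclophilin that binds HSP90, had already fallen.

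HSP70 cofactors gave 4 lower and 1 higher of 9 at 6 h, against 18.6% lower and 18.0% higher over all genes tested. BAG2, an inhibitor of the ubiquitin ligase STUB1, had 1853 and 1771 counts at 6 h, against 2655 and 3175 counts in DMSO (log2 change of the scaled level -0.68), and was already lower at 2 h (-0.54, adjusted p = 4.91e-07). The exchange factors HSPBP1 (-0.48) and BAG1 (-0.37) fell at 6 h, and BAG6 (0.19) rose. BAG4 was called higher at 2 h (0.31, adjusted p = 0.0300).

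Of 10 other J-domain genes 4 fell and 2 rose at 6 h, the rises near the 18.0% of all genes tested that rose, while 18.6% fell. DNAJC2, a partner of HSP70 at the ribosome, had 58.9 and 49.8 CPM at 6 h, against 107 and 122 CPM in DMSO (log2 change -1.08 ± 0.0889, adjusted p = 9.32e-14). DNAJB4 rose at 2 h (0.51) and 6 h (0.68), with 24.7 and 24.0 CPM at 6 h, against 15.7 and 14.6 CPM in DMSO, and DNAJB6, a suppressor of protein aggregation, rose at 6 h (0.28). DNAJB2 was called lower at 2 h (-0.52, adjusted p = 0.0477). Among 7 other HSP70 and HSP110 genes, HSPA4L (-0.80 ± 0.102, adjusted p = 1.37e-08) and HSPA6 fell at 6 h. HSPA6, a strictly heat-inducible HSP70, was low throughout, with 0.618 and 0.967 CPM (12 and 19 counts) at 6 h, against 1.94 and 2.41 CPM (35 and 51 counts) in DMSO (adjusted p = 0.0223).

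Of the factor's own family and its binding partners, HSBP1, which binds the trimerisation domain of HSF1, fell at 6 h (-0.34, adjusted p = 0.00127), and HSF2 rose (0.31, adjusted p = 0.0484, close to the threshold). HSF4 did not pass. Of 4 small heat shock protein genes only HSPB1 was tested, and it did not pass at 6 h against DMSO (-0.16, adjusted p = 0.0845) but was called lower at 6 h than at 2 h (-0.27, adjusted p = 0.00384). CRYAB, HSPB6 and HSPB8 had at most 0.361 CPM in any library.

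The HSP70 and HSP90 paralogs of other compartments did not follow a single direction. Those of the endoplasmic reticulum rose: all 4 were called higher at 6 h (18.0% of all genes tested were), and 3 of them at 2 h (8.68%). HSPA5, the HSP70 of the reticulum, had 1369 and 1368 CPM at 6 h, against 1076 and 1171 CPM in DMSO (log2 change 0.28 ± 0.0496, adjusted p = 7.92e-06; 0.17 at 2 h, adjusted p = 0.0112). HSP90B1, the HSP90 of the reticulum, was at 0.24 at 2 h (adjusted p = 0.000216), and HSPA13 rose most (0.58 at 2 h and 0.93 at 6 h). The mitochondrial paralogs HSPA9 (-0.31) and TRAP1 (-0.36) fell at 6 h. The TPM ratio of HSPA8 to HSPA5 was 0.937 and 0.946 at 6 h, against 2.80 and 2.76 in DMSO.

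**Figure D5:**
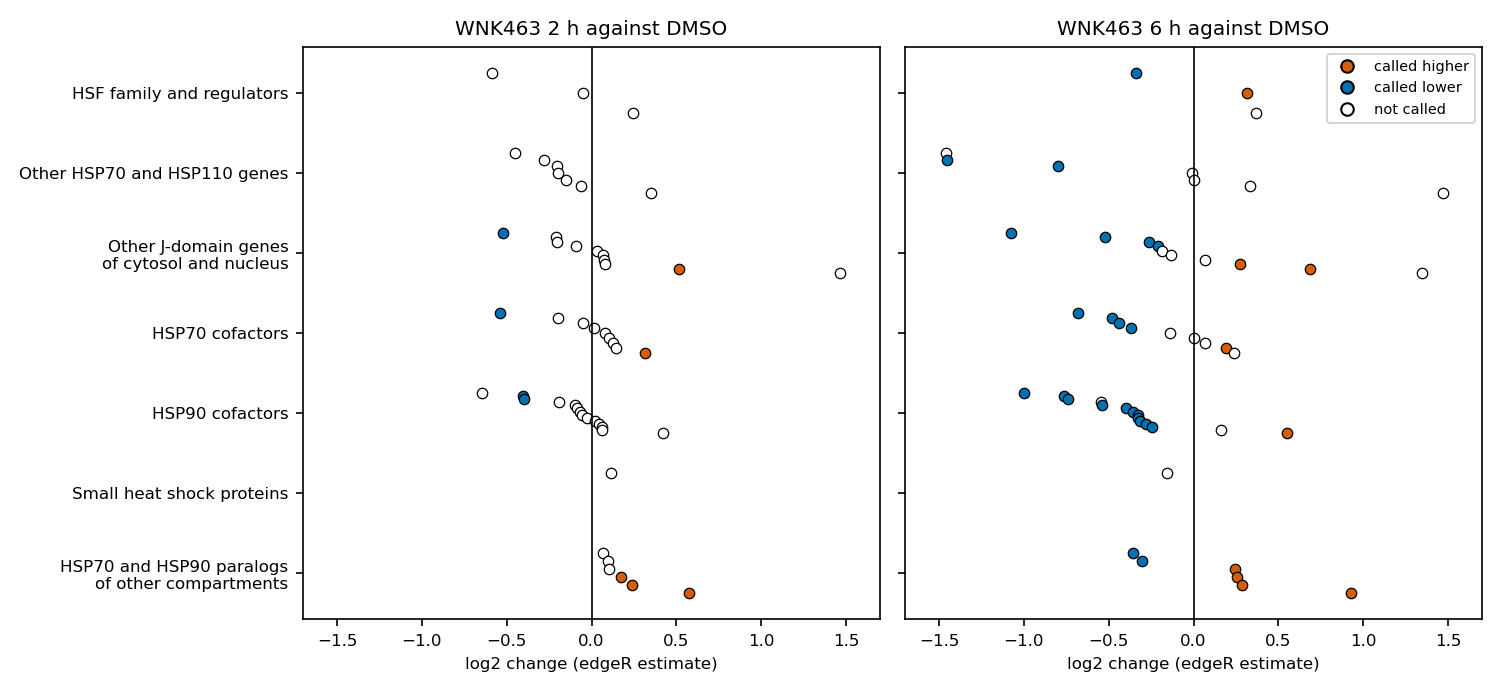
Log2 change of 50 network genes against DMSO at 2 h (left) and 6 h (right), by role group; each circle is 1 gene, orange if called higher, blue if called lower and white if not called. At 6 h 11 of 14 HSP90 cofactors are blue, and the group of other compartments is split into 4 orange and 2 blue.

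Genes whose patterns were most like those of HSPA8, HSP90AB1 and DNAJB1 were sought by the distance between log2 CPM values centred on their mean over the 6 libraries, among 10569 genes outside the set and the network with a mean of at least 4 CPM. Nearest to HSPA8 were FERMT1, ALDH1B1 and URB2, at distances of 0.206 to 0.210 (log2), with log2 changes at 6 h of -1.27, -1.25 and -1.20. Nearest to HSP90AB1 were DHX9, NUP205 and PRKDC, at the shorter distances of 0.0273 to 0.0377. Nearest to DNAJB1 were BSG, B4GALT3 and ADAM15, at 0.0482 to 0.0489.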

How the data were processed

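The authors deposited raw fragment counts per gene for 6 libraries. Per the file headers they were made with featureCounts 2.0.0 against GENCODE 34, without strand, from read pairs with both ends mapped, a mapping quality of at least 20 and no chimeras, and with no option to count fragments of several positions or genes. Per the submitters' processing notes, reads were trimmed with Trimmomatic and aligned with STAR to hg38 (their versions are not given in the sources used here). An exon length column deposited beside the counts was used for TPM. A record broken over several lines was rejoined, and 60370 of 60728 identifiers matched a symbol.

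All 6 libraries were fitted together in edgeR 4.0.16 (R 4.3.3) by quasi-likelihood tests with TMM scaling (factors 0.977 to 1.025) and filterByExpr, with Benjamini-Hochberg adjustment over 15548 genes and calls at 0.05. The biological coefficient of variation was 7.72%. A gene's spread rested mostly on all genes (42.8 prior against 3 residual degrees of freedom). CPM are TMM-scaled; SEs derive from the F statistic; 95% intervals use the same degrees of freedom. The procedure was tested on simulated data, drawn with a single spread for all genes and with few genes changed. Such data cannot show how it handles a spread that differs between genes or changes as broad as those seen here. Alternatives were other scalings and filters, voom in limma 3.58.1, DESeq2 1.42.0, a replicate block, fits restricted to each pair of groups, summed HSPA1A and HSPA1B, a threshold of 0.01 and leaving out each library. Shared sequence was searched in GENCODE 29 transcripts, and promoters came from RefSeq. Figures used matplotlib 3.10.9. The intervals include the spread between libraries; the floor of 3 counts covers counting error only.

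The members and lists were chosen with earlier results of these data known. Named network genes were, per role group, up to 3 called genes with the smallest adjusted p at each time against DMSO, plus those called against their group's majority at 6 h.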

Additional observations from a re-analysis of the deposited data

Results flagged for a closer look

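For 7 of the 10 genes the change against DMSO differed between 6 h and 2 h, by the edgeR test of 6 h against 2 h with Benjamini-Hochberg adjustment over 15548 genes, in which 24.3% of all genes tested were called (13.1% lower). The difference (change at 6 h minus change at 2 h, log2) was -0.83 for HSPA8, -0.40 for DNAJA1, -0.38 for HSPA4, -0.37 for HSP90AA1, -0.33 for HSF1, -0.32 for HSP90AB1 and -0.31 for HSPH1, with adjusted p values of at most 0.000240. Both 6 h libraries lay below both 2 h libraries in each of the 7. DMSO drops out of this difference, so these are the values of the step from 2 h to 6 h given above and no second finding.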

How the results depend on the processing

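Of 450 values of the 10 genes under other settings, 436 stayed on the same side of the threshold and 13 newly passed it, 12 of them at 2 h. A single call (HSPA1B at 6 h) was lost, and no called change turned its direction. The sum of HSPA1A and HSPA1B is entered under both genes. It gave the only new pass at 6 h and every new pass of HSPA1A. At 2 h against DMSO the number of the 10 genes called was 1, and it was 2 with RLE size factors, library size alone, no filter, at least 1 CPM in a group, limma voom or HSPA1A and HSPA1B summed, and 1 to 4 with a library left out. HSPA8 was called in each of these. At 6 h the number was 8, and 7 to 8 with a library left out; between 6 h and 2 h it was 7 throughout. In the network, 9 genes were called at 2 h, 5 at an adjusted p under 0.01, and 5 to 15 with a library left out. It was 33 at 6 h (25 to 32 with a library left out) and 26 between 6 h and 2 h (15 to 30), with 17 without 2 h replicate 1, 16 without 6 h replicate 1 and 15 without 6 h replicate 2. A fit with a library left out has 1 library in that group, so its calls do not measure the spread within that group. In the fits named just before, fewer of all genes tested were called as well. The cause of these shifts was not tested. Deviations of same-numbered libraries correlated at -0.0381 to -0.0054 over genes, so no shared deviation was seen. Noise in single genes can hide one, and this does not decide whether same-numbered libraries were made together. With a replicate block 1, 8 and 7 of the 10 genes were called at 2 h, 6 h and between them, and 9, 31 and 27 network genes. Among the 10 genes HSPA1A had the fewest counts (50 to 97 per library).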
